A study of Mus musculus with 6 samples.

Results

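The genes described here form the relay by which the uterine epithelium signals to the stroma beneath it through hedgehog: the ligand Ihh, its receptor Ptch1, the transducer Smo, the transcription factors Gli1, Gli2 and Gli3, the inhibitor Hhip, the co-receptor Gas1 and the stromal nuclear receptor Nr2f2. These 9 genes, of 18193 genes measured, were chosen by name, and each was read from its brightest probe set by the mean of the 6 arrays. Hedgehog ligands are secreted proteins that carry lipid. Binding of the ligand to Ptch1 releases Smo, which acts through the primary cilium to turn the Gli factors towards activation, and Gli1 and Ptch1 are themselves transcribed in responding cells. In the mouse uterus progesterone acts through its receptor in the epithelium to raise Ihh, while Ptch1, the Gli factors and Nr2f2, also known as COUP-TFII, are stromal, and the loss of either Ihh or Nr2f2 prevents implantation.

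All mice were female, of a mixed background, and carried floxed Gata2 alleles (Gata2 f/f) in both groups; the labels mention no Cre. Ovariectomy was done at 6 weeks; at 8 weeks of age one group received sesame oil and the other 1 mg of progesterone, each in 100 µl; the uterus was taken 6 h later. Each group had 3 one-colour Affymetrix arrays, and per the labels the RNA of 3 mice was pooled. The labels do not say if the arrays of a group came from separate pools, so p-values measure only how far these samples spread, and some of that may be technical. The values are log2 expression from RMA, which summarises the probes of each probe set, and having 3 arrays a group limits precision. Background was read from the TrpnX controls, bacterial sequences absent from mouse RNA, which lay between 2.87 and 3.34. The whole uterus was measured, so that fewer cells of a type and less RNA per cell cannot be told apart.

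The arrays carried the markers of the tissue. The mean of 11 epithelial markers lay between 9.86 and 10.11 on the oil arrays and between 9.54 and 10.18 on the progesterone arrays (log2), and 1 of them passed the test, Cldn3, which was higher. The mean of 10 stromal markers lay between 11.43 and 11.68 with oil and between 11.25 and 11.65 with progesterone; Twist2 was higher and Lum lower. With the replicate number as a block, Elf3 of the epithelial list was also lower, and of the stromal list Col1a1 was also higher and Vim lower. Some arrays stood apart within their group. The mean of 5 neutrophil markers was 7.90 on oil replicate 3, 7.62 on progesterone replicate 2 and 8.30 on progesterone replicate 3, against 3.99 to 4.12 on the other arrays, and the liver transcript Alb was 8.71 on oil replicate 3 against 3.96 to 4.29 elsewhere. The mean of 6 proliferation markers was 7.91 on oil replicate 3 and 7.98 on progesterone replicate 3, against 5.65 to 6.74 on the others. The mean of 5 adipocyte markers was 6.02 to 6.70 with oil and 4.78 to 6.10 with progesterone. In limma 0 of 5 were past the threshold and 4 of 5 had an unadjusted p under 0.05, beside 26% of all genes. With the replicate block 4 of 5 were called lower, beside 16.1% of all genes called in either direction. Some genes are named by a rule given with the processing. Results of these and of the members that change without oil replicate 3 and progesterone replicate 3 are given with that value. For other list genes, the count of their list is given where it changed.

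The start of 8 of the 9 genes was matched in the RefSeq promoter table of GRCm38.p6, and Gli1 was not. The 250 bases before the start are shown for 3 genes, 5′ to 3′ on the gene's strand: Ihh, because it was the member that rose, Scube2, a gene for hedgehog release that rose with it, and Nr2f2, because its window held the only motif match among the members. Capitals mark that match.
Ihh: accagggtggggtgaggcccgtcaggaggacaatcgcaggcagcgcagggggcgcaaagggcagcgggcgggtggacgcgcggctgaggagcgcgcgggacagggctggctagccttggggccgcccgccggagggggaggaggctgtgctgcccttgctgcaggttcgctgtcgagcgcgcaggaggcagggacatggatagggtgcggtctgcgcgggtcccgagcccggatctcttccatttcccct
Scube2: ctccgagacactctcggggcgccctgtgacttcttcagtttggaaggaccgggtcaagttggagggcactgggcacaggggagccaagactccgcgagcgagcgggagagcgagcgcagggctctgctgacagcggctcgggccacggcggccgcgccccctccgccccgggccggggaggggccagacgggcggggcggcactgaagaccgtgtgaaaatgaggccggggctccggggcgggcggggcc
Nr2f2: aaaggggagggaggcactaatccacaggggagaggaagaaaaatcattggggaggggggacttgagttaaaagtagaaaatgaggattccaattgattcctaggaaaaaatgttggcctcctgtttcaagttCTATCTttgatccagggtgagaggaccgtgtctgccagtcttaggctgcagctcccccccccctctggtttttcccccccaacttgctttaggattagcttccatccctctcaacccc
The windows are chr1:74951673-74951922 for Ihh, chr7:109865680-109865929 for Scube2 and chr7:70366747-70366996 for Nr2f2, all on the minus strand, directly before the annotated gene. Their G and C content was 72.0% for Ihh, 73.6% for Scube2 and 50% for Nr2f2. The letters searched, on both strands, were GACCACCCA for Gli, AGATAA for GATA factors (T also allowed as the first and G as the last letter), the palindromic element of the progesterone receptor, TGTTCT for a part of that element, and the direct repeat of AGGTCA with 1 base between its copies, a form bound by nuclear receptors such as Nr2f2. The TGTTCT letters can lie inside the palindromic element. Shares were counted over 32851 promoter windows of this length, with the windows of 1 chromosome left out. Of these, 0.225% held the Gli letters, 26.5% a GATA match, 0.387% the palindromic element and 16.1% TGTTCT, and 0.0335% the direct repeat. The Nr2f2 window held 1 GATA match on the opposite strand, from 118 to 113 bases before the start. None of these letters are in the windows of Ihh, Ptch1, Smo, Gli2, Gli3, Hhip, Gas1 or Scube2, which says only that they are not in this stretch.

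The other members lie, in the same build, at chr13:63508328-63573460 (Ptch1), chr6:29735497-29761366 (Smo), chr10:127329882-127341579 (Gli1), chr1:118834061-119054405 (Gli2), chr13:15463723-15730026 (Gli3), chr8:79965850-80058060 (Hhip), chr13:60174405-60177535 (Gas1) and chr7:70351946-70366746 (Nr2f2). The comparison of progesterone with oil asked which of the relay's transcripts respond to the hormone within 6 h. Ihh, the ligand, rose 4.09-fold, and it was the 1 member of 9 past the threshold (limma, Benjamini-Hochberg adjusted p under 0.05 over all genes). The other 8 did not pass, among them Ptch1 and Gli1, the transcripts that are read as a sign of hedgehog signalling, and Nr2f2. The count of lower members was 0 in limma, and also 0 at an unadjusted p under 0.05. Over all genes 5.92% were called higher and 5.83% lower, or 11.7% in either direction, and with the replicate number as a block 16.1%, where Ihh was again the 1 member that passed. The median log2 change was 0.08 over the 9 members and 0.03 over the other 8, beside -0.02 over all genes. An unadjusted limma p under 0.05 was seen in 2 of the other 8 members, Gli3 and Gas1, both with higher values, and in 26% of all genes.

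**Figure D1:**
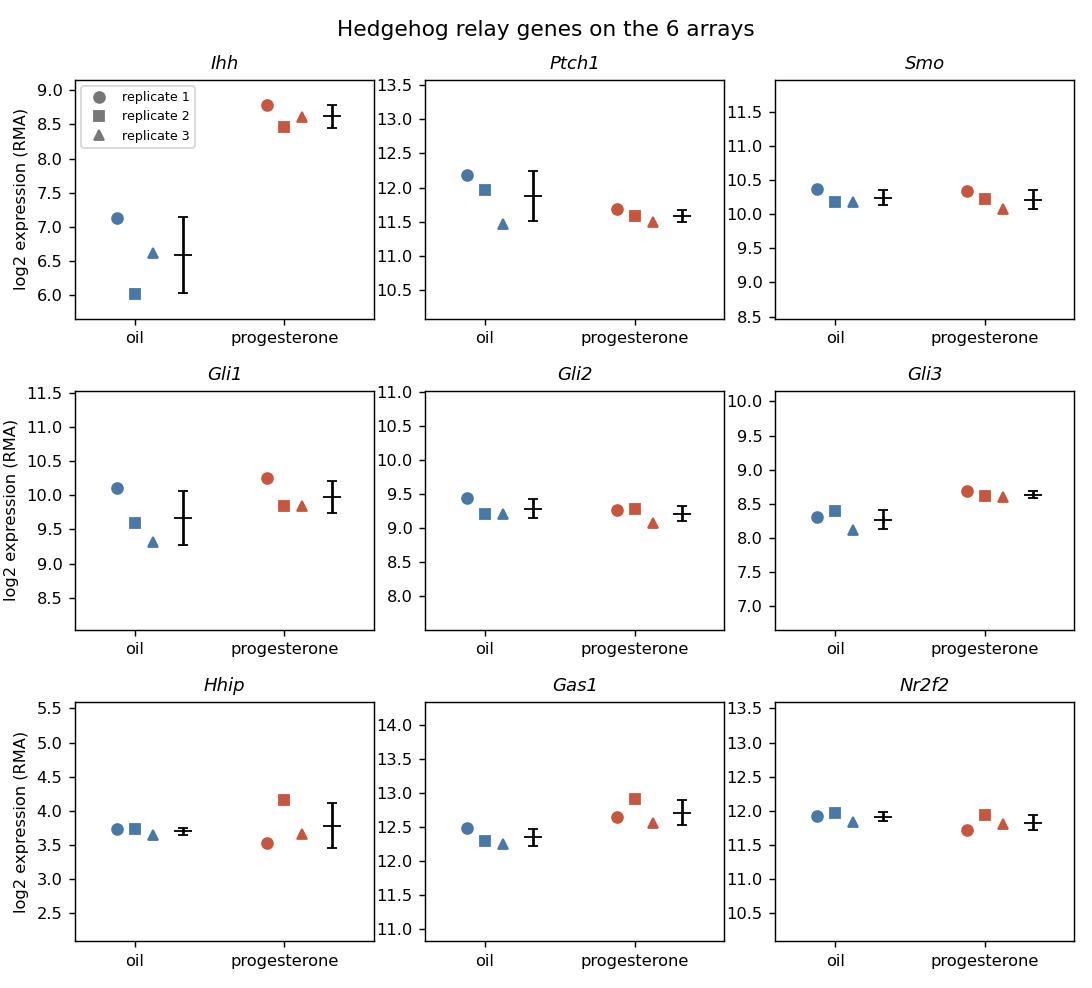
Log2 expression (vertical axis, RMA) of the 9 genes on each array, by group; symbols mark the replicate number, the black bar the mean and SD of 3 arrays, and every panel spans 3.5 log2 units. The progesterone arrays of Ihh lie between 8.46 and 8.79, all above the oil arrays at 6.02 to 7.13, and those of Gli3 and Gas1 also lie above their oil arrays by smaller steps.

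Ihh encodes Indian hedgehog, the ligand that the uterine epithelium makes; the gene lies on chromosome 1 from 74945315 to 74951672 in GRCm38.p6. Ihh expression was 7.13, 6.02 and 6.61 on oil replicates 1 to 3 and 8.79, 8.46 and 8.61 on progesterone replicates 1 to 3 (log2). All 3 progesterone arrays lay above all oil arrays, and the oil arrays differed from each other more than the progesterone arrays did (SD 0.56 and 0.17, n = 3 each). The log2 change was 2.03 ± 0.26 SE, with a 95% interval from 1.42 to 2.65, which is a 2.67-fold to 6.28-fold rise (limma adjusted p = 0.00605). By size of rise Ihh was number 52 of 18193 genes. Within same-numbered arrays the differences were 1.66, 2.44 and 2. The call held without any 1 array, with adjusted p no higher than 0.0238, and without oil replicate 3 and progesterone replicate 3 together (2.05, adjusted p = 0.0395). It did not hold in a linear model without shared spread (adjusted p = 0.0649). Ihh has 1 probe set on this array, so no other one could be set beside it. The epithelial marker mean, given above, overlapped between the groups.

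Ptch1, the hedgehog receptor and a transcript of responding cells, was 12.19, 11.96 and 11.47 on oil replicates 1 to 3 and 11.68, 11.58 and 11.50 on progesterone replicates 1 to 3 (log2). Its groups overlapped through oil replicate 3, which was the lowest of all 6 arrays. The log2 change of -0.29 had a 95% interval from -0.71 to 0.14 (limma adjusted p = 0.392). A second probe set, 1439663_at, was 8.47, 8.12 and 7.62 with oil and 7.61, 7.6 and 7.85 with progesterone, and the third, 1450824_at, stayed between 4.15 and 4.65. All 3 probe sets had lower means with progesterone, and none passed. The log2 change of Ptch1 was -0.49 without oil replicate 3 (limma adjusted p = 0.0667) and -0.13 without oil replicate 1 (adjusted p = 0.751).

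Gli1, the activator that is itself switched on by hedgehog, was 10.10, 9.59 and 9.31 on oil replicates 1 to 3 and 10.25, 9.84 and 9.85 on progesterone replicates 1 to 3 (log2). Each progesterone array was above the oil array of the same number, by 0.15, 0.25 and 0.54, while the groups overlapped because oil replicate 1 was higher than 2 of the progesterone arrays. The log2 change was 0.31, with a 95% interval from -0.19 to 0.82 (limma adjusted p = 0.434, and 0.113 with the replicate block). It was 0.53 without oil replicate 1, 0.14 without oil replicate 3 and 0.18 without progesterone replicate 1, and passed in none of these fits (adjusted p = 0.145, 0.750 and 0.696). Gli1 has 1 probe set. In both Ptch1 and Gli1, oil replicate 1 was the highest oil array and oil replicate 3 the lowest; oil replicate 3 is also the oil array with the highest proliferation, neutrophil and liver marker means, and the part of these in the spread was not tested. Without oil replicate 3 and progesterone replicate 3, the log2 change was -0.45 for Ptch1 (adjusted p = 0.124) and 0.20 for Gli1 (adjusted p = 0.671), and Ihh was the member that passed under this setting.

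Gli3, the Gli factor that acts mostly as a repressor when no ligand is present, was 8.30, 8.39 and 8.12 on oil replicates 1 to 3 and 8.69, 8.62 and 8.60 on progesterone replicates 1 to 3 (log2). The groups did not overlap, which was so for 30.4% of all genes (14.5% with progesterone higher and 15.9% with it lower). The log2 change was 0.37, with a 95% interval from 0.13 to 0.60, or 1.29-fold (limma adjusted p = 0.0598). It was past the threshold when the dimmer 50% of genes were left out (adjusted p = 0.0309) or an offset of 32 was added before log2 (0.0353), and with the mean of its probe sets the log2 change was 0.23 (0.106). A second probe set, 1455154_at, was 7.62, 7.67 and 7.57 with oil and 7.96, 7.99 and 7.81 with progesterone, again without overlap (adjusted p over all probe sets = 0.105). The third, 1450525_at, lay at 3.72 to 3.93 on all 6 arrays. Gli2, the main activator in many tissues, was 9.44, 9.20 and 9.20 with oil and 9.26, 9.28 and 9.08 with progesterone, with a 95% interval of the log2 change from -0.33 to 0.18, and its other probe set had a log2 change of -0.05.

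Gas1, a membrane protein that helps Ptch1 bind the ligand, was 12.49, 12.30 and 12.25 on oil replicates 1 to 3 and 12.65, 12.91 and 12.56 on progesterone replicates 1 to 3 (log2). The groups did not overlap in this or either of its other probe sets, which were read on the same arrays. Of all genes, 30.4% had groups that did not overlap, and 14.5% did so with progesterone higher. The 1448494_at probe set went from 11.62, 11.35 and 11.21 to 11.71, 11.92 and 11.73, and 1456322_at from 4.95 to 5.06 in the oil range to 5.14 to 5.30. The log2 changes of the 3 probe sets were 0.36, 0.39 and 0.25, and none passed the test (adjusted p = 0.115 for the first over genes, 0.115 and 0.173 for the others over probe sets). Gas1 therefore had small values in 1 direction in every probe set, of which the largest upper interval bound was 0.70.

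Smo, the membrane protein that Ptch1 holds inactive, showed little difference: 10.37, 10.18 and 10.18 with oil and 10.34, 10.23 and 10.07 with progesterone (log2). The 95% interval of its log2 change ran from -0.29 to 0.23 (limma adjusted p = 0.911). Its probe set, 1427049_s_at, is of a type whose probes can match more than 1 transcript, and the other probe sets, 1427048_at and the dimmer 1442215_at, had log2 changes of 0.02 and 0.25 and did not pass. Hhip, the membrane-bound protein that takes up hedgehog ligand, was dim: 3.73, 3.73 and 3.64 with oil and 3.53, 4.16 and 3.66 with progesterone, close to the TrpnX range, with 1 of its 4 probe sets at a mean of 3.07, inside it. At that level a difference was not detectable here, and the 95% interval of its log2 change ran from -0.31 to 0.47.

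Nr2f2, the stromal nuclear receptor placed downstream of hedgehog, was 11.93, 11.97 and 11.84 on oil replicates 1 to 3 and 11.72, 11.94 and 11.81 on progesterone replicates 1 to 3 (log2). The groups overlapped, and the 95% interval of the log2 change, from -0.32 to 0.14, spanned 0 (limma adjusted p = 0.639). It has 6 probe sets, of which 4 had slightly higher means with progesterone, with log2 changes from 0.04 to 0.14, and 2 had lower ones. The 1431237_at probe set was 6.07, 6.23 and 6.05 with oil and 5.89, 5.75 and 5.89 with progesterone, lower on all 3 arrays, with a log2 change of -0.27 (adjusted p over all probe sets = 0.150). The probe sets of this gene thus had differences of both signs, all within 0.27 of 0. Of the 17 further probe sets of the members, 0 passed in limma over all probe sets, where 8.99% of probe sets did. An unadjusted p under 0.05 was seen in 4 of the 17, which were 1 of Gli3, 2 of Gas1 and 1 of Nr2f2. It was seen in 26% of all genes, and its share over all probe sets was not counted.

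**Figure D2:**
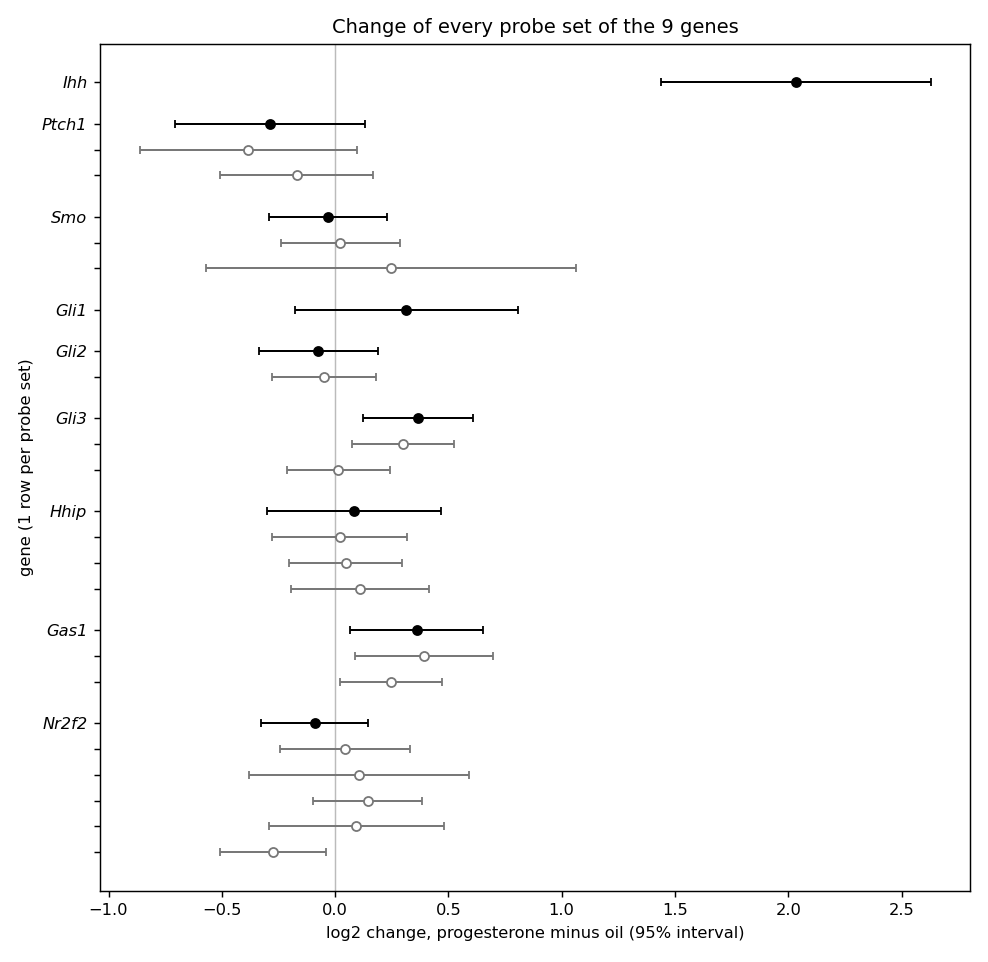
Log2 change with progesterone against oil (horizontal axis) of all 26 probe sets of the 9 genes, with 95% intervals from limma over all probe sets; filled points are the probe set used for the gene and open points the others. The Ihh interval runs from 1.44 to 2.63, and every other point lies within 0.39 of 0.

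Genes around the relay were read from lists written from textbook knowledge, with earlier results of these data known. In the list for ligand production and release, 3 of 9 genes were higher and 0 lower, with a median log2 change of 0.05. Over all genes 5.92% were called higher and 5.83% lower. Fewer genes were called when an array was left out, which bears on every such list count below. With all arrays 1077 genes were higher and 1060 lower. Without any 1 array, between 379 and 848 were higher and between 278 and 907 lower. Without oil replicate 3 and progesterone replicate 3 together, 586 were higher and 441 lower. Scube2, a secreted protein that helps free the lipid-bearing hedgehog from its source cell, was 6.92, 6.94 and 7.16 on oil replicates 1 to 3 and 9.51, 9.18 and 9.56 on progesterone replicates 1 to 3 (log2). The progesterone arrays lay far above the oil arrays, and the 5.31-fold rise (log2 change 2.41 ± 0.13 SE, limma adjusted p = 0.0011) was called without any 1 array as well. Its relative Scube1 rose 1.49-fold (adjusted p = 0.035), and Hhat, the enzyme that adds palmitate to hedgehog ligands, rose 1.48-fold (adjusted p = 0.0304) from a mean of 5.38 to 5.94. Leaving out 1 array at a time kept the Scube1 call in 1 of 6 fits and the Hhat call in 0, and neither passed without oil replicate 3 and progesterone replicate 3 (adjusted p = 0.0978 and 0.106), which leaves a count of 1. The count was 1 without any 1 of oil replicates 1, 2 or 3 or progesterone replicates 2 or 3, and 2 without progesterone replicate 1. A second probe set of Hhat had a log2 change of 0.08, and with the mean of both Hhat was not called (0.32, adjusted p = 0.0911).

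The other hedgehog ligands were dim. Shh was 4.03, 3.90 and 3.60 with oil and 3.89, 3.78 and 4.01 with progesterone (log2), and Dhh was 4.50, 4.88 and 4.78 with oil and 5.10, 5.12 and 4.91 with progesterone. Neither passed (limma adjusted p = 0.874 and 0.157). Disp1, the transporter that exports hedgehog ligands, had a log2 change of -0.29 (adjusted p = 0.0860). Among 3 measured genes for reception, Lrp2, a large endocytic receptor that also binds hedgehog ligand in some tissues, rose from 5.22, 5.18 and 4.97 to 10.25, 9.49 and 9.12, or 22.6-fold (adjusted p = 0.0011). A second probe set of Lrp2 rose by 4.36 and another, at 3.63 with oil, had a log2 change of 0.28 that did not pass. The co-receptors Cdon and Boc had log2 changes of -0.23 and 0.20 and did not pass.

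Inside the receiving cell, 2 of 26 transduction genes were lower, beside 5.83% of all genes, 0 were higher and 24 did not pass. Their median log2 change was -0.07. Arrb1, a beta-arrestin that binds Smo, was 8.53, 8.62 and 8.76 with oil and 7.77, 7.90 and 7.69 with progesterone, a fall of 1.80-fold without overlap (limma adjusted p = 0.0051). Efcab7, which holds the Evc proteins at the base of the cilium, fell 1.47-fold (adjusted p = 0.0255), called in 2 of 6 fits that each left out 1 array and not called without oil replicate 3 and progesterone replicate 3 (adjusted p = 0.134). The repressor of Gli factors, Sufu, had a log2 change of 0.05 and the kinesin Kif7 one of -0.34 (adjusted p = 0.844 and 0.0916). With the replicate block 4 genes of this list were lower, Evc and Mgrn1 being the ones added. Over all genes the block raised the lower count from 1060 to 1545. Lower genes numbered 1 without oil replicate 2, oil replicate 3 or progesterone replicate 3, and 3 without progesterone replicate 2. They numbered 1 without oil replicate 3 and progesterone replicate 3 together.

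Genes of the primary cilium, through which vertebrate hedgehog signals pass, had the lowest median of the lists. Of 20 measured, 7 were lower and 1 was higher, beside 5.83% and 5.92% of all genes, and 12 did not pass. The median log2 change was -0.42 against -0.02 over all genes. In 14 of the 20 the progesterone arrays lay below all oil arrays, beside 15.9% of all genes. Kif3a, a motor subunit that carries cargo into the cilium, was 8.17, 8.18 and 8.18 with oil and 7.53, 7.59 and 7.28 with progesterone (log2), a fall of 1.64-fold (limma adjusted p = 0.0091). Ift122, of the complex that returns cargo from the cilium tip, fell 1.59-fold, and Cc2d2a and Tctn1, of the gate at the cilium base, fell 1.53-fold and 1.44-fold (adjusted p from 0.0098 to 0.0262). Ift81, Dync2h1 and Ift80, which also move cargo along the cilium and are named here after their values were seen, fell by 0.45, 0.43 and 0.39 on the log2 scale. The gene that rose was Tulp3, an adaptor that brings receptors into the cilium and restrains hedgehog signalling, at 1.33-fold (adjusted p = 0.0393). Ift88, often deleted to remove cilia, had a log2 change of -0.21 (adjusted p = 0.251).

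The size of the cilium count varied with the arrays used. The number of lower genes was 2 without oil replicate 1, 1 without oil replicate 2, 3 without oil replicate 3, 4 without progesterone replicate 2 and 3 without progesterone replicate 3, against 7 without progesterone replicate 1, and 1 without oil replicate 3 and progesterone replicate 3 together. Over all genes the lower count, 1060 with all arrays, also fell in these fits. It was 443 without oil replicate 1, 278 without oil replicate 2 and 697 without oil replicate 3. Without progesterone replicates 1, 2 and 3 in turn it was 907, 500 and 626. It was 441 without oil replicate 3 and progesterone replicate 3 together. With the replicate block 11 cilium genes were lower, and 1545 over all genes. The number of higher cilium genes was 1 without progesterone replicate 3 and 0 without any 1 of the other arrays. Without oil replicate 3 and progesterone replicate 3 together it was 0, and Ift81, Dync2h1, Ift80 and Tulp3 were not called. Kif3a was called in all 6 fits without 1 array, Cc2d2a in 5, Tctn1 in 2 and Ift122 in 1. Of these, Kif3a alone was called without oil replicate 3 and progesterone replicate 3, where the adjusted p of Cc2d2a, Tctn1 and Ift122 was 0.0637, 0.0622 and 0.106. Another probe set of Ift122 also fell, as did another of Kif3a, with a log2 change of -0.52. The remaining Kif3a probe sets, with log2 changes of -0.40 and -0.34, did not pass. Their limma adjusted p over all probe sets was 0.155 and 0.122. Foxj1, the factor of cells with many motile cilia, stayed between 4.22 and 4.35 with oil and between 4.15 and 4.23 with progesterone. Adipocyte and endothelial marker means were lower with progesterone too. The endothelial mean was 8.03 to 8.47 with oil and 7.90 to 8.14 with progesterone. In limma 0 of 9 endothelial markers were past the threshold and 3 of 9 had an unadjusted p under 0.05, beside 26% of all genes. With the replicate block 2 of 9, Pecam1 and Tek, were called lower, beside 16.1% of all genes called in either direction. The part of these cell types in the lower cilium values was not tested.

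**Figure D3:**
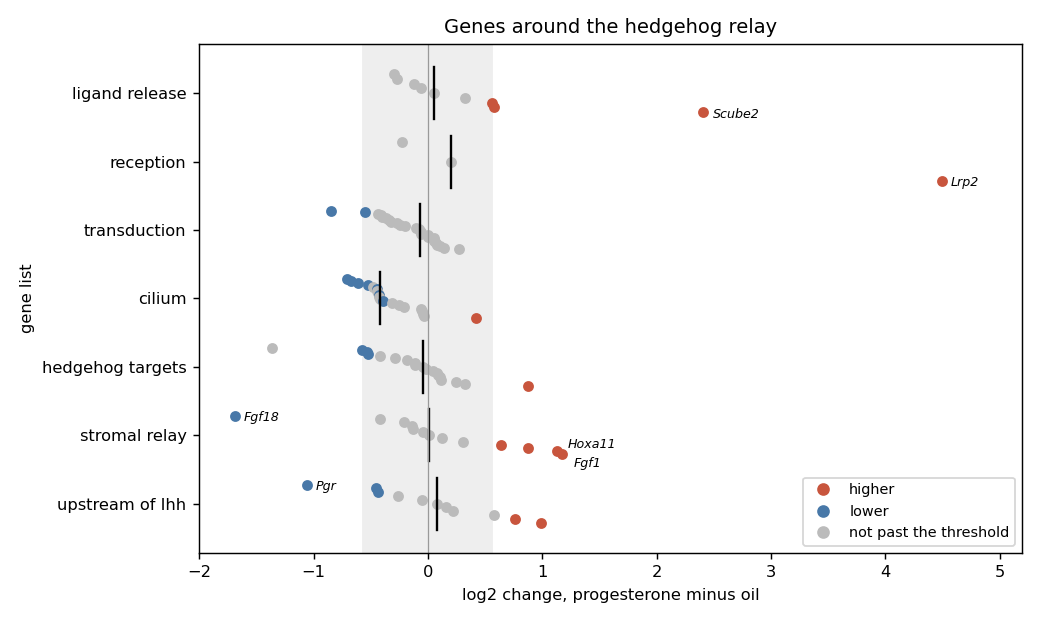
Log2 change with progesterone against oil (horizontal axis) of the measured genes of 7 lists around the relay; colour gives the limma call, the black bar is the list median, and the grey band runs from percentile 5 to 95 of all 18193 genes, from -0.57 to 0.56. The cilium median lies at -0.42 and the medians of the other lists between -0.07 and 0.20.

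Of 19 measured genes listed as hedgehog targets, 1 was higher and 3 were lower, beside 5.92% and 5.83% of all genes, and 15 did not pass. Their median log2 change was -0.04. Snai1, a repressor of epithelial genes, rose 1.84-fold, from 7.09, 6.77 and 6.51 to 7.68, 7.73 and 7.59 (log2, limma adjusted p = 0.0142). The cell cycle kinase Cdk6 fell 1.49-fold, the survival factor Bcl2 1.44-fold and the ligand Bmp4 1.44-fold (adjusted p = 0.0144, 0.0298 and 0.0499). In Bcl2 all 4 further probe sets fell too, with log2 changes between -0.70 and -0.55. Without 1 array, the calls of Cdk6 held in 4 of 6 fits and those of Bcl2 and Bmp4 in 1 of 6 each. Leaving out oil replicate 1 or oil replicate 2 left 0 lower genes, and leaving out any 1 progesterone array left 1. Cdk6 and Bcl2 were also not called without oil replicate 3 and progesterone replicate 3 (adjusted p = 0.0659 and 0.06), where 2 genes of the list were lower. Snai1 lost its call without oil replicate 2 (adjusted p up to 0.0651) and without progesterone replicate 2. Mycn, named after its value was seen, had a log2 change of -1.37 (adjusted p = 0.0507 without and 0.00463 with the replicate block). Ccnd1, Foxf1 and Foxl1 had log2 changes of -0.29, 0.24 and 0.08 and did not pass.

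On the stromal side, 4 of 13 genes placed with Nr2f2 were higher and 1 was lower, beside 5.92% and 5.83% of all genes. The median log2 change of the list was 0.01. Fgf1 rose from 5.96, 5.96 and 5.90 to 7.52, 7.09 and 6.74 (log2), or 2.26-fold (limma adjusted p = 0.0109), a call that ended without oil replicate 2 (adjusted p = 0.0516). Fgf18, a growth factor that signals from stroma to epithelium, fell 3.23-fold, from 6.99, 7.20 and 5.98 to 5.40, 4.82 and 4.88 (adjusted p = 0.0194). Fgf18 was no longer called when either of oil replicates 1 and 2 or either of progesterone replicates 2 and 3 was left out (adjusted p up to 0.0743), which left 0 lower genes; leaving out oil replicate 3 gave 2. The homeobox factors Hoxa11 and Hoxa10 rose 2.18-fold and 1.84-fold, and Hand2, outside the naming rule, rose 1.55-fold. The count of higher genes was 2 without oil replicate 2. It was 3 without oil replicate 3 and progesterone replicate 3 together, where Hand2 was not called. Bmp2 and Wnt4, which need Nr2f2 during decidualization, had log2 changes of -0.21 and 0.13 (adjusted p = 0.685 and 0.542), and the relatives Nr2f1 and Nr2f6 of -0.04 and 0.30.

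Of 11 genes placed upstream of Ihh, read here in the whole uterus, 2 were higher and 3 lower, beside 5.92% and 5.83% of all genes. The progesterone receptor Pgr fell from 11.62, 11.46 and 11.35 to 10.48, 10.35 and 10.43 (log2, limma adjusted p = 0.0026), so that Ihh and its activator had changes of opposite sign. Egfr, the receptor for EGF-like ligands, rose from 8.15, 7.88 and 8.03 to 8.93, 9.14 and 8.96 (adjusted p = 0.0038). Of its 6 other probe sets 1 rose, by 0.73, and 5 did not pass; the mean of its probe sets gave a log2 change of 0.35 (adjusted p = 0.0303). Gata2, whose floxed allele these mice carry, was 10.50, 10.32 and 10.20 with oil and 11.51, 10.91 and 10.88 with progesterone (adjusted p = 0.0411); this call held in 1 of 6 fits without 1 array. The oestrogen receptor Esr1 and the coactivator Ncoa2, the latter named after its value was seen, fell 1.37-fold and 1.36-fold, and Esr1 held in 1 of 6 fits and not with the mean of its probe sets (-0.29, adjusted p = 0.138). Neither Gata2 nor Esr1 was called without oil replicate 3 and progesterone replicate 3 (adjusted p = 0.101 and 0.0876). The count of higher genes was 1 without any 1 of oil replicates 1, 2 or 3 or progesterone replicates 2 or 3, and that of lower genes was 1 without the same arrays. Both counts were 1 without oil replicate 3 and progesterone replicate 3 together, where Ncoa2 was not called.

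The genes whose pattern over the 6 arrays was nearest to that of Ihh were sought by the root mean square difference of log2 values, each gene centred on its own mean. The 5 nearest were Aldh1a7, an aldehyde dehydrogenase, at 0.194, the helix-loop-helix factor Tcf23 at 0.195, Noct, the clock-linked phosphatase nocturnin, at 0.202, Cth, an enzyme of cysteine synthesis, at 0.240, and P4ha2, a subunit of collagen prolyl hydroxylase, at 0.262. Tcf23 was 9.08, 8.46 and 8.50 with oil and 10.83, 10.73 and 10.59 with progesterone (log2), or 4.10-fold higher. Noct was 7.37, 6.52 and 7.52 with oil and 9.27, 9.10 and 9.24 with progesterone. All 5 shared with Ihh the lowest level on oil replicate 2. Each of the 5 was called higher, and since the measure rests on the same 6 arrays and on the step between groups, this is a description of likeness only.

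**Figure D4:**
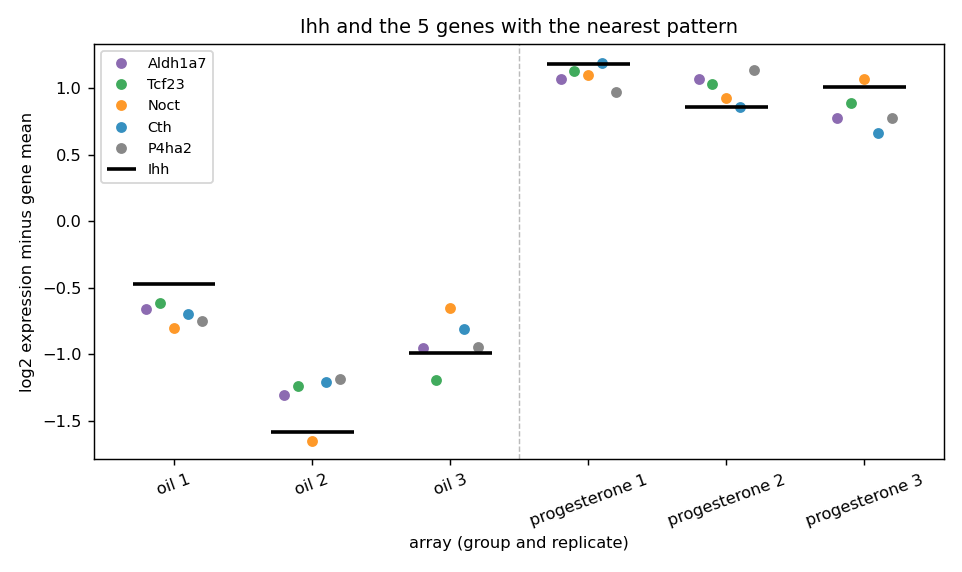
Log2 expression minus the gene's own mean (vertical axis) on each of the 6 arrays for the 5 genes nearest to Ihh (points) and for Ihh (black bars). The points share with the bars the step between the groups and the lowest level on oil replicate 2. Noct differs from Ihh in the order of the oil arrays, and the other genes differ in that of the progesterone arrays. Root mean square differences lie between 0.194 and 0.262.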

How the data were processed

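Total RNA of 6 uterine samples, 3 after oil and 3 after progesterone, was measured on one-colour Affymetrix arrays. The authors deposited log2 values of 45101 probe sets; Partek 6.6 and RMA were used, per the submitters' processing notes, with further settings not given in the sources used here. Array medians lay between 5.51 and 5.53. Of the probe sets, 34945 had 1 gene symbol in the platform annotation, 932 several, 9160 none and 64 were controls. Each of 18193 genes was read from its probe set of highest mean, and 26 probe sets belonged to the members. List genes with no match by name were not analysed here. Promoter sequences are those of RefSeq for GRCm38.p6, and gene positions come from the RefSeq table of that build.

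Groups came from the sample titles and were compared in R 4.3.3 by limma 3.58.1 (linear fit, eBayes, two-sided, Benjamini-Hochberg over all genes, threshold 0.05, no filter). The members and lists were chosen with earlier results of these data known. Named genes were the members, up to 4 called genes of each list by size of change (or the 2 largest changes where fewer than 2 were called) and the 5 genes nearest to Ihh; other genes of the lists were named after their values were seen. For the arrays of a number, each as its difference from the mean of its group, the correlation across genes was 0.523, 0.141 and 0.636. The value for oil replicate 2 and progesterone replicate 1, 0.322, was above that of the number 2 pair. All same-number values exceeded 0.1, the minimum set here, so the number was used as a block in an alternative fit. The main fit had no block. Pairing is only a hint from the data, since the labels do not state what same-numbered arrays have in common. Alternatives were other normalizations, filters, probe set rules, spread estimates and thresholds, the block and each array left out. On simulated data of 18193 genes for 3 arrays against 3, the procedure called 12 of 50 genes with a true log2 change of 0.5, 41 of 50 with 1 and 43 of 50 with 2. It called 152 genes, 6 of them without a true change, while 2137 genes were called in the data. The adjustment was therefore stricter in the simulation, and its rates cannot be set directly against the data.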

Additional observations from a re-analysis of the deposited data

How the results depend on the processing

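Ihh kept its direction in all 19 alternatives and its call in 18; in the plain linear model without moderation its log2 change of 2.03 had an adjusted p of 0.0649, and the count of higher members was 0. That count was 2 with an offset of 32 or without the lowest 50% of genes, where Gli3 passed beside Ihh. Counts over all genes, 1077 higher and 1060 lower, were 348 and 245 in the plain linear model, 328 and 243 at an adjusted p under 0.01, and 586 and 441 without oil replicate 3 and progesterone replicate 3, an alternative chosen after seeing the data; 1714 probe sets were higher when each was tested on its own. Without any 1 array they lay between 379 and 848 higher and between 278 and 907 lower, where fewer arrays are part of the alternative's construction. With the replicate number as a block, Ihh had an adjusted p of 0.00216 and no other member passed; the block also called genes of the pathway and marker lists that were not past the threshold without it, among them Mycn, Evc, Mgrn1 and Sox17.

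Of 150 values of the other 8 members under alternatives, 141 kept direction and side of the threshold. Those that changed sign lay near 0: Smo at 0.08 with the mean of probe sets, 0.0333 without oil replicate 1, 0.0417 without progesterone replicate 3 and 0.01 without oil replicate 3 and progesterone replicate 3; Gli2 at 0.00667 without oil replicate 1; Hhip at -0.11 without progesterone replicate 2; Nr2f2 at 0.00389 with the mean of probe sets. The cause was not tested. Leaving out 1 array gave -0.0933 to 0.0417 for Smo and -0.11 to 0.21 for Hhip. Hhip could not be fitted without the lowest 25% or 50% of genes. Of 527 values of the 28 other named genes, 427 kept both, 100 lost the call and 0 reversed. Signal over background limits Hhip and Shh.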
